A study of Mus musculus with 4 samples.

Results

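The 10 genes described here are the Notch receptors Notch1, Notch2, Notch3 and Notch4, the ligands Jag1, Jag2, Dll1 and Dll4, and the target repressors Hes1 and Hey1. They were chosen by symbol, as members of a signalling pathway linked to SOX17 in arteries, and all 10 were found among the 22369 genes of the deposited table. The cells were OG2MEF, mouse embryonic fibroblasts with an Oct4-driven green fluorescent reporter, collected on day 9 of reprogramming. There were 2 libraries labelled SOX17 WT (called wild type here) and 2 labelled SOX17-V118M (V118M), a form of the transcription factor with a missense change. The protocol in the labels gives retroviral pMX-Sox2 and Klf4 with OCT4, SOX17, SOX17-V118M or GFP, then culture in medium for mouse embryonic stem cells that held LIF and vitamin C. Which mixture each library received is not stated, nor whether replicates were separate cultures, and no untreated fibroblast library is part of the comparison. The comparison asks how the cells' RNA differs between the mutant and the wild-type factor.

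Notch receptors are single-pass membrane proteins that bind Jagged or Delta-like ligands on neighbouring cells. Ligand binding exposes the receptor to ADAM proteases and then to gamma-secretase, which releases an intracellular fragment. That fragment joins the DNA-binding protein RBPJ and a Mastermind protein and turns on genes such as Hes1 and Hey1, which encode repressors. In arteries, SOX17 and its relatives are known as regulators of Notch pathway genes, and Notch4 and Dll4 are known for endothelial expression.

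Values are whole-number scores that had nearly the same distribution in all 4 libraries, so library depth is unknown and no counting interval is given. Each library had a total between 12855482 and 12859613 and 3291 to 3366 genes at 0, and the median score of wild-type replicate 1 was 76. V118M replicate 2 stood apart: over 12661 genes its correlation with the other libraries was 0.954 to 0.964, against 0.986 to 0.990 among those 3. The fold changes of the tested members are therefore also given without that library. Of 11 fibroblast markers, all were present, from Pdgfra at 248 to 460 up to Col3a1 at 29496 to 61186. Their summed scores were 140491 and 149269 with the wild-type factor and 143021 and 125789 with V118M. Col3a1 weighs heavily in these sums, at 29496 in V118M replicate 2 and 61186 in every other library. Of the 11 markers, 7 were higher in V118M. Of 8 pluripotency markers, 4 stayed under 10 everywhere and Esrrb was at 0 or 1. Of the 6 tested, 4 were higher in V118M, Sall4 was lower and Pou5f1 tied. An unadjusted p under 0.05 was reached by 1 of 6, beside 4.01% of all tested genes. This was Utf1, named after its values were seen, at 10 and 17 against 33 and 38 (limma unadjusted p = 0.0191, adjusted p = 0.951). Pou5f1 was at 61186, the highest score of the table, in all 4 libraries. At least 10 genes shared that score in each library, so equal values there cannot show a difference. Nor can the size of the Col3a1 difference be read from it. The protocol names OCT4 among the factors, and its part in the Pou5f1 score was not tested. Sox17 scored 3484 and 2880 with the wild-type factor and 3016 and 2396 with V118M, and the table carries no sequence that could show the mutation. Because these were bulk cultures, fewer cells of a type and less RNA per cell cannot be told apart.

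Promoter sequences were available for 8 members in the RefSeq table of GRCm38.p6, and Hes1 and Hey1 were not among them. The 250 bases before each start were searched on both strands for ATTGT, a core that SOX factors bind, for TGGGAA, a core of RBPJ sites, and for the compressed SOX/OCT element named in the study's design, CATTGTATGCAAAT, which itself holds the SOX core. ATTGT was found in 2 of 8, Notch4 and Jag1, and in 27.4% of 32536 distinct windows of that length. TGGGAA was found in 0 of 8, against 21.6% of all windows, and the compressed element in 0 of 8 and in 0 of all windows. The start in the deposited table lies 281 bases upstream of the RefSeq start for Jag2, 153 for Dll1 and 124 for Jag1. By that start, all of the searched Jag2 window and part of the Dll1 and Jag1 windows are inside the gene. The sequences with a SOX core are shown because SOX17 is the factor varied in the study, with ATTGT in capitals. The Notch4 stretch is chr17:34564045-34564294 on the plus strand, and its ATTGT begins 10 bases before the RefSeq start. The start that the deposited table gives for Notch4 lies 27 bases upstream of the RefSeq start, so by that start this ATTGT is inside the gene. The Jag1 stretch is chr2:137116645-137116770 on the minus strand, cut at the start that the deposited table gives, and its ATTGT begins 163 bases before the RefSeq start.
Notch4: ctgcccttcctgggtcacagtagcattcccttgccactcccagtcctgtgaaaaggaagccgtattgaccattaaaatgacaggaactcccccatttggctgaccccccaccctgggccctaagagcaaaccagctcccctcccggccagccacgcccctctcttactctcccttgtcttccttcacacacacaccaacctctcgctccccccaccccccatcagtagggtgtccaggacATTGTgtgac
Jag1: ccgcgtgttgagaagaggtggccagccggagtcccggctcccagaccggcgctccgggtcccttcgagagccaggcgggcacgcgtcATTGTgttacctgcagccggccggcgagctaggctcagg
Such a match describes letters only, and the data hold no measurement of binding.

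None of the Notch genes differed between V118M and wild type past the threshold. The genes were tested with limma on log2(score + 1), after keeping those with a score of at least 1 in at least 2 libraries. Of 10 members 9 passed this filter, and Dll4 did not. The fit covered 19547 genes, of which 0 (0%) had an adjusted p under 0.05. Of the 9 tested members, 0 passed, and each had a limma adjusted p of 0.951. An unadjusted p under 0.05 was reached by 784 genes (4.01%) and by 0 of the 9 members. The mean was lower in V118M for 7 of 9 members and higher for 2, where 48.2% of all tested genes were lower. The median log2 fold change (V118M minus wild type) was -0.34 over the 9 members and 0 over all tested genes. Without V118M replicate 2 the median was 0.08, and 6 members rather than 2 were higher.

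**Figure D1:**
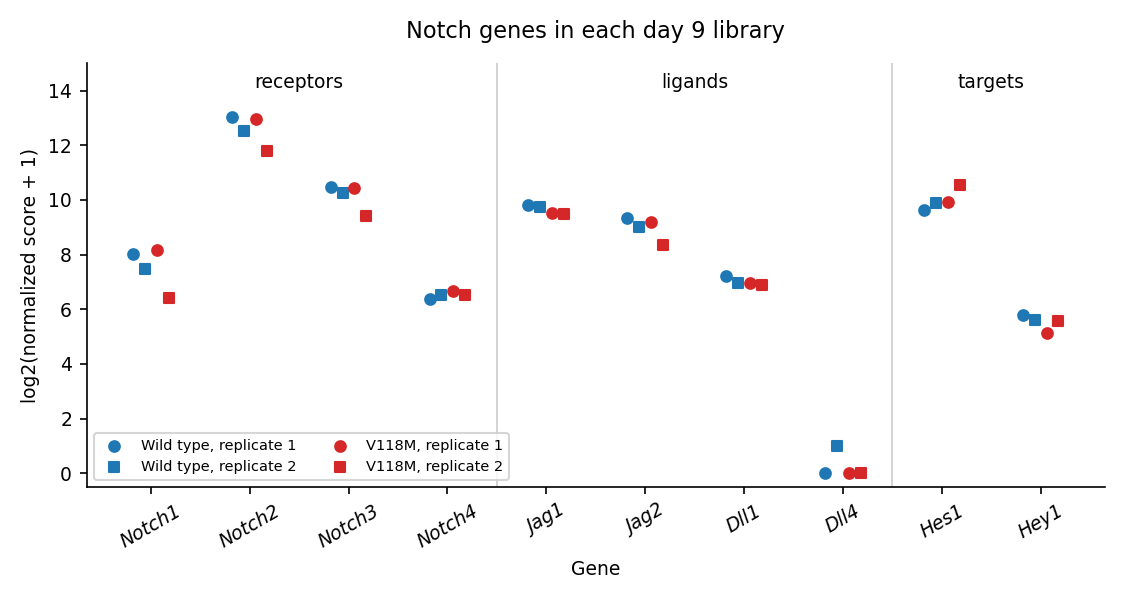
Score of each Notch gene in the 4 libraries, on a log2(score + 1) axis, with genes grouped by role. Blue symbols are wild type, red symbols V118M, circles replicate 1 and squares replicate 2. V118M replicate 2 is the lowest point for Notch1, Notch2, Notch3, Jag1, Jag2 and Dll1, by a small margin for Jag1 and Dll1, and Dll4 is at 0 or 1.

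Among the receptors, Notch2 had by far the highest scores. Notch2 (ENSMUSG00000027878, GRCm38 chromosome 3, 98013527 to 98150361, plus strand), one of the widely expressed receptors, scored 8364 and 5812 with the wild-type factor and 8066 and 3545 with V118M. The groups overlapped: V118M replicate 1 lay close to wild-type replicate 1, and V118M replicate 2 was the lowest of the 4. The means were 7088 ± 1805 and 5806 ± 3197 (SD, n = 2 each), and the log2 fold change of -0.38 was smaller than its standard error of 0.43. Without V118M replicate 2 it was 0.21, and omission of wild-type replicate 1 brought it to -0.12.

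Notch1, the receptor known for its role in arterial and T-cell development (chromosome 2, 26457903 to 26516663, minus strand), was also lowest in V118M replicate 2, at much lower scores. It stood at 258 and 178 with the wild-type factor and 288 and 85 with V118M. Its highest and its lowest value were thus both V118M libraries, which differed from each other by 1.75 on the log2 scale, against 0.53 between the wild-type libraries. The log2 fold change was -0.45 (standard error 0.59) and a 95% interval from -1.96 to 1.06. Leaving out V118M replicate 2 gave 0.42, leaving out V118M replicate 1 gave -1.32, and omission of wild-type replicate 1 or 2 gave -0.18 or -0.72.

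Notch3, a receptor known from vascular smooth muscle and pericytes (chromosome 17, 32120820 to 32166852, minus strand), scored 1414 and 1216 with the wild-type factor and 1382 and 676 with V118M. Again V118M replicate 1 fell within the wild-type range and replicate 2 was well below it. The log2 fold change was -0.44 (standard error 0.35), and 0.08 without V118M replicate 2. Mural markers, a list of 9 genes, summed to 6229 and 5868 with the wild-type factor and 6195 and 6205 with V118M. The highest of these, Acta2, scored 2172 to 2863, and the lowest, the pericyte gene Abcc9, 0 to 4.

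Notch4, the endothelial receptor (chromosome 17, 34564268 to 34588503, plus strand), did not share this pattern. Its scores were 82 and 90 with the wild-type factor and 102 and 92 with V118M, so both V118M values were above both wild-type values by a small margin. The log2 fold change was 0.17 (standard error 0.21). Omission of V118M replicate 2 made it 0.25, that of V118M replicate 1 made it 0.10, and that of wild-type replicate 1 made it 0.11. Among all tested genes, 13.2% had both V118M values above both wild-type values.

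The ligand Jag1, which signals to Notch receptors in arterial walls and many epithelia, had the closest replicates of all 9 tested members. Jag1 (chromosome 2, 137081456 to 137116644, minus strand) scored 892 and 856 with the wild-type factor and 743 and 720 with V118M. The groups did not overlap, and replicates differed by 0.06 and 0.05 on the log2 scale. The means were 874 ± 25.5 and 731.5 ± 16.3 (SD, n = 2 each), which gave a log2 fold change of -0.26 (standard error 0.14) and a 95% interval from -0.61 to 0.10. Its limma adjusted p was 0.951, and over the 14 alternatives it ranged from 0.194 to 1. The log2 fold change stayed between -0.29 and -0.23 whichever library was left out. It was -0.14 once the dependence of each library on transcript length and GC content was taken out, where V118M replicate 2 lay between the wild-type values and replicate 1 below them.

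Jag2, the second Jagged ligand (chromosome 12, 112907819 to 112929776, minus strand), scored 642 and 510 with the wild-type factor and 578 and 328 with V118M. The groups overlapped, and the order of the 4 libraries was that of Notch2 and Notch3. Its log2 fold change was -0.39 (standard error 0.31). It was 0.01 without V118M replicate 2, whereas omission of wild-type replicate 1 gave -0.23. Dll1, a Delta-like ligand of the early embryo (chromosome 17, 15367354 to 15376872, minus strand), stood at 148 and 124 in wild type, at 123 in V118M replicate 1 and slightly lower in V118M replicate 2. The means were 136 ± 17.0 and 120.5 ± 3.54 (SD, n = 2 each). The groups were 1 score apart at their closest, and the log2 fold change was -0.17 (standard error 0.20). Omission of wild-type replicate 1 brought it to -0.04, of wild-type replicate 2 to -0.29 and of V118M replicate 2 to -0.14. Dll4, the Delta-like ligand of arterial endothelium and sprouting tip cells (chromosome 2, 119325784 to 119335962, plus strand), was listed at 0 in 3 libraries and at 1 in wild-type replicate 2. No fold change is given for it.

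Of the target repressors, Hes1 was higher and Hey1 lower in V118M by their means. Hes1 (chromosome 16, 30064384 to 30067796, plus strand), a repressor that oscillates in many progenitor cells, scored 800 and 944 with the wild-type factor and 962 and 1480 with V118M. Both V118M values were above the wild-type values, replicate 1 by 18 score units only, and most of the difference came from V118M replicate 2. The means were 872 ± 102 and 1221 ± 366 (SD, n = 2 each), and the log2 fold change was 0.46 (standard error 0.25) and a 95% interval from -0.17 to 1.09. It had the smallest unadjusted p of the members, 0.123 in limma. Without V118M replicate 2 the log2 fold change was 0.15, and without V118M replicate 1 it was 0.77.

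Hey1, the repressor that acts in arterial identity (chromosome 3, 8663359 to 8667256, minus strand), scored 54 and 48 with the wild-type factor and 34 and 47 with V118M. Here V118M replicate 1 was the lowest library, and replicate 2 lay 1 score below wild-type replicate 2. The log2 fold change was -0.34 (standard error 0.30). It was -0.57 without V118M replicate 2, whereas omission of V118M replicate 1 gave -0.11. Across the members, both V118M values were below both wild-type values in 3 of 9 (Jag1, Dll1 and Hey1), against 14.8% of all tested genes, and above them in 2 of 9 (Notch4 and Hes1). These names were read off after the values were seen.

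The genes whose 4-library pattern was most like that of Hes1, by Euclidean distance between centred log2 values, were Snrpd1 (distance 0.027), Grwd1 (0.042) and Lyar (0.049). Snrpd1 scored 572, 687, 690 and 1050 in the same order of libraries. Of 7763 genes of similar level, 233 lay within a distance of 0.2, so 4 libraries give little resolution between patterns.

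How the scores were normalized is not stated. Whether they already account for transcript length, and whether scores of different genes can be compared, is therefore unknown. Scores were divided by the length of each gene's longest protein-coding transcript and averaged over the 4 libraries, as a rough scale for quantile-like values. On this scale Hes1 was the highest, at 713 per kilobase (545 to 1008), and Notch2 followed at 614 (338 to 797). Their ranges overlapped. Notch3 at 146 and Jag1 at 143 also overlapped, below Notch2. Jag2 at 101 and Dll1 at 35.8 stood apart from their neighbours in the order. Notch1 at 21.3, Hey1 at 18.9 and Notch4 at 13.9 overlapped in sequence, and Dll4 was last at 0.067. The order of Notch2 against Hes1 depends on the transcript used. The deposited table lists Notch2 under a retained-intron transcript of 1896 bases, not under its coding transcript of 10500 bases, and with the shorter length Notch2 would stand at 3400 per kilobase.

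The spread within V118M went with transcript length. The difference between V118M replicate 2 and the mean of the other 3 libraries had a Spearman's rho of -0.581 with transcript length across 12651 genes, which share the same 4 libraries and are not independent replicates. For 2915 genes with transcripts under 2000 bases its median was 0.39 on the log2 scale, and for 764 genes of 8000 bases or more it was -0.47. V118M replicate 2 was the lowest library in 78.7% of the genes in the longest class and in 7.58% of those in the shortest. In the classes between, in order of rising length, it was lowest in 31.4%, 61.0% and 75.8%. Among the tested Notch genes it was lowest in 6 of 9, against 32.7% of all tested genes. Notch1 (9488 bases), Notch2 (10500) and Notch3 (8016) are in the longest class, and their differences of -1.47, -1.05 and -0.98 lay below its lower quartile of -0.73. Jag2 (5106 bases) at -0.81 lay below the lower quartile of its class, -0.43, whereas Jag1 (5612 bases) at -0.20 was near the median of that class, also -0.20. Notch4 (6591 bases) at 0.02 lay above the upper quartile of -0.13. Hes1, with a transcript of 1468 bases, was at 0.72, above the upper quartile of 0.60 for the shortest class.

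**Figure D2:**
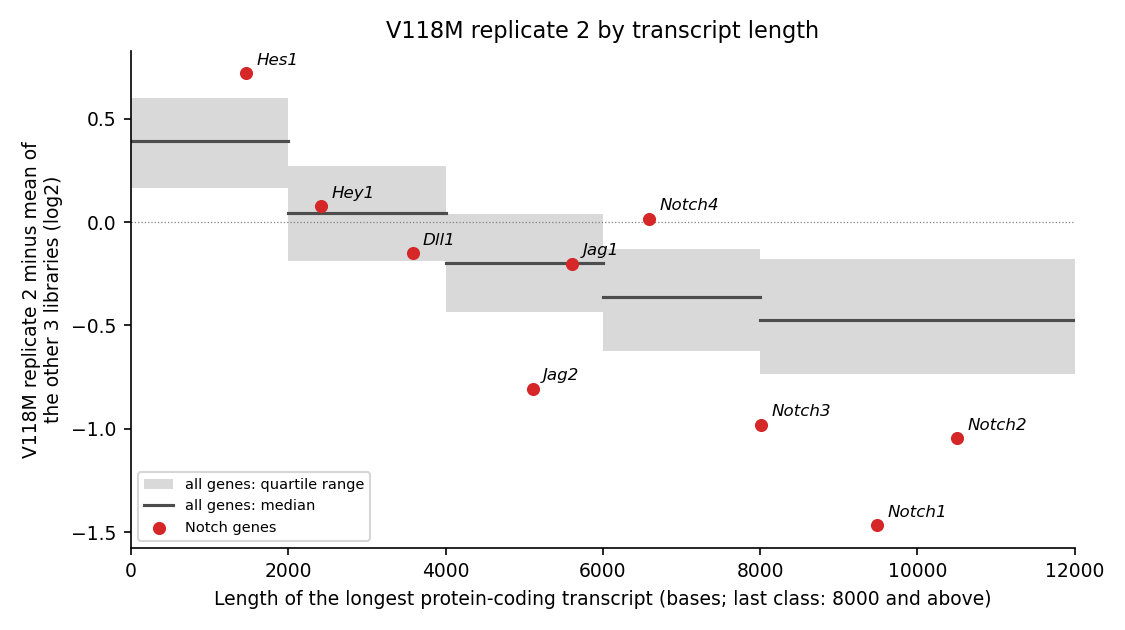
Difference between V118M replicate 2 and the mean of the other 3 libraries (log2) against the length of the longest protein-coding transcript in bases. Grey bands are the quartile range and dark lines the median of all genes in 5 length classes; red points are the 9 tested Notch genes, of which Notch1, Notch2, Notch3 and Jag2 lie below the band and Notch4 and Hes1 above it.

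When this dependence on length (longest transcript of each gene) and GC content was taken out of each library, the differences of 4 genes with long transcripts shrank, while that of Notch4 went from 0.17 to 0.36. The log2 fold change became -0.22 for Notch1, -0.17 for Notch2, -0.22 for Notch3 and -0.24 for Jag2. V118M replicate 2 was still 0.86 below the other libraries for Notch1, and 0.46 and 0.40 below for Notch2 and Notch3. Of the genes whose groups had not overlapped, Hes1 and Hey1 still did not, at 0.31 and -0.38, and Notch4, Jag1 and Dll1 now did. Notch3 no longer overlapped, with V118M replicate 1 just under wild type. Hes1 had a standard error of 0.12 and an unadjusted p of 0.053 in this limma fit, with adjusted p = 0.826. With the short transcript that the table lists, Notch2 was at -0.40.

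**Figure D3:**
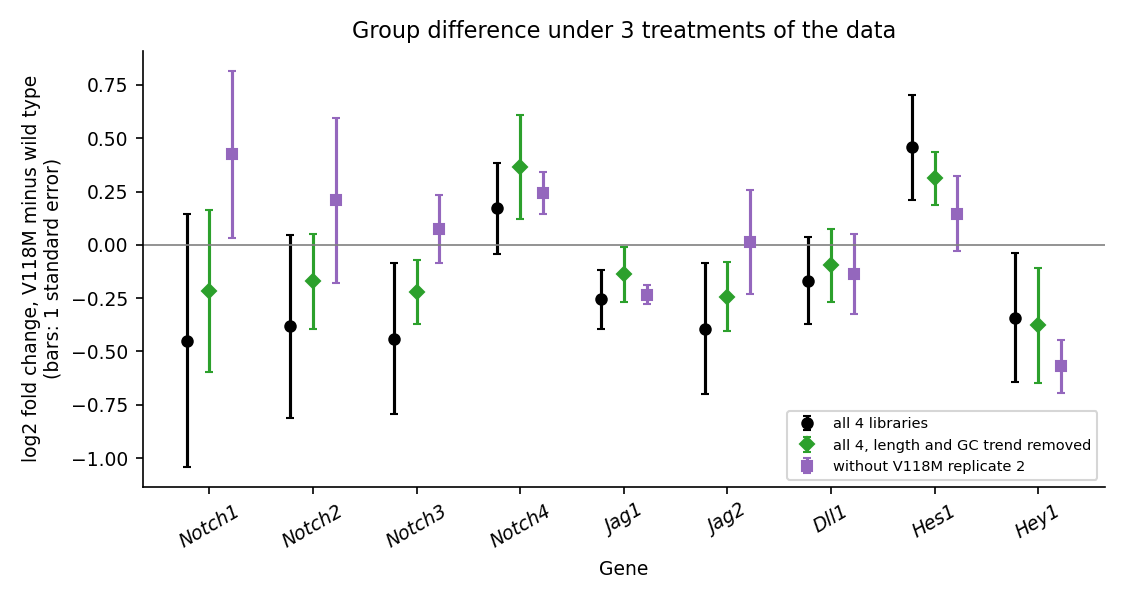
Log2 fold change of V118M minus wild type for the 9 tested Notch genes, with bars of 1 standard error. Black circles use all 4 libraries, green diamonds the same after removal of the length and GC trend, and purple squares leave out V118M replicate 2; Notch1, Notch2, Notch3 and Jag2 go from below 0 to above 0 without that library, while Jag1, Dll1 and Hey1 stay below 0 and Notch4 and Hes1 above it.

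The wider pathway was described with 7 lists holding 73 genes, of which 70 passed the filter. Of these, 0 had an adjusted p under 0.05 in limma. An unadjusted p under 0.05 was reached by 4 of 70, beside 4.01% of all tested genes. In V118M 29 were higher and 39 lower, beside 49.2% and 48.2% of all tested genes. The median log2 fold change of the 70 was -0.03. Both V118M values were below wild type in 15 and above it in 8 of 70, beside the 14.8% and 13.2% of all tested genes given above.

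Other ligands were the list with the most unadjusted hits, 3 of 7 beside 4.01% of all tested genes, all 3 higher in V118M. Dlk1, a paternally expressed Delta-like protein that lacks the DSL domain of canonical ligands, scored 271 and 284 with the wild-type factor and 442 and 626 with V118M. Its groups did not overlap, and the log2 fold change was 0.92 (standard error 0.21) (limma unadjusted p = 0.00723, adjusted p = 0.951). It was 0.67 without V118M replicate 2 and 1.03 after trend removal. The microfibril protein Mfap2, known to bind Jagged1, scored 50 and 61 against 85 and 132, a log2 fold change of 0.93, and 0.61 without V118M replicate 2. The third, named after its value was seen, was its relative Mfap5, at 129 and 135 against 172 and 254, a log2 fold change of 0.66, and 0.38 without that library. Mfap2 (1073 bases) and Mfap5 (1506 bases) are in the shortest transcript class, where V118M replicate 2 was the highest library in 75.7% of genes. The part of transcript length in these 2 values was not tested beyond the trend removal, which gave 0.78 and 0.50. Dner, also named after its values were seen, went the other way, at 21 and 14 against 8 and 6.

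Genes that process the receptor formed a list of maturation genes and a list of proteases. Lfng, a Fringe glycosyltransferase that alters which ligands a receptor answers to, scored 208 and 164 with the wild-type factor and 112 and 174 with V118M. The groups overlapped, and its log2 fold change was -0.40, and -0.72 without V118M replicate 2. The O-fucosyltransferase Pofut1 was at 628 and 585 against 568 and 466. In this maturation list 2 of 6 were higher and 4 lower, with a median of -0.13, and without V118M replicate 2 the median was 4.72e-04 with 3 of 6 higher. The 9 protease genes had a median of -0.02 with 3 higher, and of 0.03 with 5 higher without that library. Among them the gamma-secretase subunit nicastrin (Ncstn) stood at 2066 and 2100 against 1903 and 1643, and Psenen, another subunit, at 624 and 851 against 742 and 1072. No gene of either list had an unadjusted p under 0.05.

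In the list of trafficking genes, 9 of 15 were lower, 5 higher and 1 tied, with a median of -0.16. Dtx2, a Deltex ubiquitin ligase, scored 646 and 596 with the wild-type factor and 530 and 410 with V118M. Mib2, a Mind bomb ligase that acts on ligands, was at 404 and 467 against 360 and 320. In this list V118M replicate 2 was the lowest library for 11 of 15, against 32.7% of all tested genes. Without that library the median was near 0, at -8.32e-04. The part of V118M replicate 2 in these values was not tested.

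The nuclear complex had a median of -0.12 over 8 genes, 5 of them lower, and of 0.06 with 5 of 8 higher without V118M replicate 2. Its Mastermind genes lay in both directions. Maml2 scored 176 and 202 with the wild-type factor and 218 and 303 with V118M, and Maml3 698 and 640 against 630 and 430. Rbpj itself, named after its values were seen, stood at 1654 and 1693 against 1702 and 1436, a log2 fold change of -0.10 that was 0.02 without V118M replicate 2. Co-repressors had a median of 0.06 over 12 genes. Tle4, a Groucho-type partner of HES proteins, was at 1203 and 1286 against 1190 and 904.

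Among 13 tested genes of the HES/HEY family and other reported targets, 8 were lower, 4 higher and 1 tied, with a median of -0.04. Gata3, a Notch target in T-cells, scored 344 and 338 with the wild-type factor and 262 and 208 with V118M, with a log2 fold change of -0.54 and a standard error of 0.19 (limma unadjusted p = 0.0315, adjusted p = 0.951). The bHLH repressor gene Bhlhe40 stood at 5820 and 6496 against 5082 and 4448. Named after their values were seen, Hes5 and Hes3 were listed at 0 in all 4 libraries, and Heyl scored 2 or 3. Nrarp, a feedback inhibitor and a target of the pathway, was at 248 and 222 against 232 and 264, with overlapping groups.

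**Figure D4:**
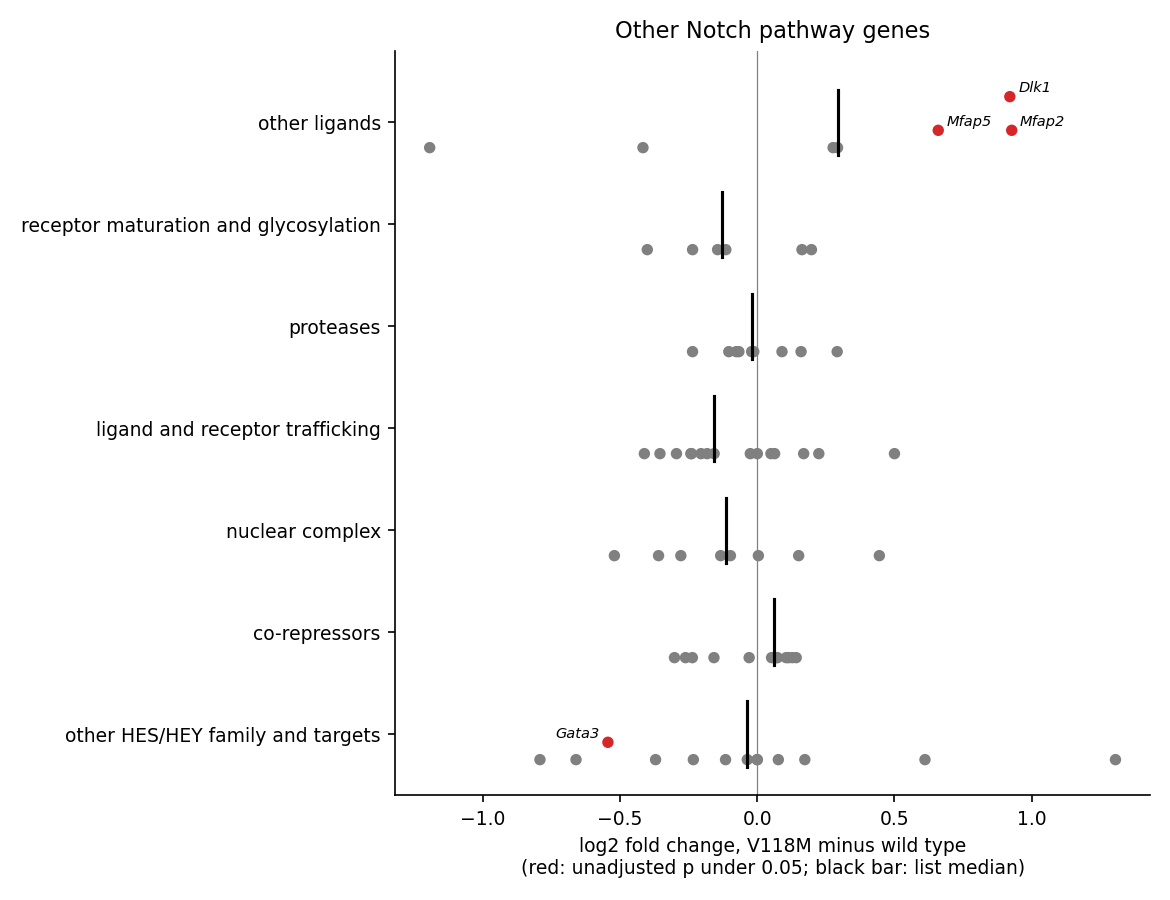
Log2 fold change of V118M minus wild type for 70 other Notch pathway genes in 7 lists, 1 point per gene, with a black bar at each list's median. Red points have an unadjusted p under 0.05, of which Dlk1, Mfap2 and Mfap5 are to the right and Gata3 to the left; these 4 are labelled, and the vertical position within a list has no meaning.

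Markers of cells in which Notch genes are well known were counted beside these results. The 14 endothelial markers summed to 1451 and 1516 with the wild-type factor and 1351 and 1311 with V118M, and most of that was the receptor gene Tek, at 933 to 1172. Emcn was at 0 in all 4 libraries, and 3 of the 14 were under 10 in every library. Pecam1 scored 17 and 14 with the wild-type factor and 18 and 24 with V118M, and Cdh5 26 and 16 against 9 and 6. Of the 13 endothelial markers tested, 4 were higher in V118M. An unadjusted p under 0.05 in limma was reached by 2 of 13, beside 4.01% of all tested genes. These were Cdh5 and Sox7, the latter at 73 and 52 against 24 and 27. Pecam1, Cdh5 and Sox7 were named after their values were seen. The 6 arterial markers summed to 3683 and 3381 against 2941 and 2697, with Gja4 at 0 to 6. Of these 6, 2 were higher in V118M, both named after their values were seen. Nrp1 was at 398 and 348 against 422 and 472, and Cxcr4 at 32 and 28 against 34 and 30. Efnb2, which encodes ephrin-B2 and is a known Notch target in arterial endothelium, made up most of the sum. It scored 2277 and 2191 with the wild-type factor and 1694 and 1502 with V118M. Its groups did not overlap, and its log2 fold change of -0.49 with a standard error of 0.15 had an unadjusted p of 0.0207 and an adjusted p of 0.951 in limma. It was -0.40 without V118M replicate 2 and -0.39 after trend removal. The 9 leukocyte markers summed to 912 and 845 against 638 and 635, with Itgam the highest, at 251 to 428, and Fcer1g the lowest, at 0 to 6. The 7 epithelial markers summed to 16841 and 16450 against 17716 and 19452, from Trp63 at 92 to 112 up to Krt8 at 5972 to 6702. Of these 7, 2 were higher in V118M, and both were named after their values were seen. Krt14 was at 4752 and 4358 against 5802 and 8053. Krt5 was at 246 and 199 against 664 and 731, with a log2 fold change of 1.65, a standard error of 0.18, an unadjusted p of 2.04e-04 and an adjusted p of 0.332 in limma. The other 5 had log2 fold changes from -0.17 to -0.05. The part of these cell types in the Notch gene values was not tested.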

How the data were processed

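Per the labels' protocols, TRIzol was used to isolate RNA and a TruSeq Nano kit to build the libraries. The deposited table holds 1 score per gene and library. The submitters' processing notes name FastQC, RSEM, Bowtie2, DESeq2 and mm10 with no role or version, and how the scores were normalized is not stated there. The scores are whole numbers but not counts: sorted columns were equal at 76.7% of ranks.

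Genes were matched to GENCODE M21 (GRCm38) by identifier (22304 of 22369), and 65 without a match were left unadjusted for length. GRCm38 is the assembly also called mm10, and positions count from 1. Whether reads were counted by strand is not stated in those notes.

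limma 3.58.1 in R 4.3.3 was fitted to log2(score + 1) with group as the only term and the trend and robust options, two-sided, with Benjamini-Hochberg adjustment over 19547 genes. Fold changes on this scale understate those of low genes. The labels name no separate cultures, so the spread behind each p-value may be technical. The length and GC trend was a spline with 5 degrees of freedom for each, fitted on genes with a mean log2 score of at least 5. The fit was tested on simulated data in which, unlike here, no library stood apart. The trend removal was tested on simulated data with a length trend.

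All 10 members are named. Of each wider list the 2 genes of smallest unadjusted p, and of each marker list the highest and lowest, are named, except 1 gene that is not reported here. Members and lists were chosen with earlier results of these data known. Alternatives were pseudocounts, filters, limma options, weights, trend removal, a replicate block and leaving out each library.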

Additional observations from a re-analysis of the deposited data

How the results depend on the processing

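Over 14 alternatives, the 9 tested members gave 126 log2 fold changes, of which 122 kept their direction, and none of the 126 reached an adjusted p under 0.05. The filters, limma options, weights and replicate block left the members' log2 fold changes as they were, so their directions were bound to stay. The replicate block with trend removed likewise repeated those of trend removal alone. The 4 log2 fold changes that reversed were all without V118M replicate 2: Notch1 (0.42), Notch2 (0.21), Notch3 (0.076) and Jag2 (0.014). Without V118M replicate 1 the same 4 were at -1.32, -0.98, -0.95 and -0.80. With each library left out in turn, the members' median ranged from -0.42 to 0.076 and the number of members higher in V118M from 2 to 6, and the number of genes called by limma was 0 in each, with 221 to 5096 at an unadjusted p under 0.05. The members' median was -0.18 without wild-type replicate 1. In these fits the lone library of a group is assumed to vary like the others. After removal of the length and GC trend the median was -0.22, and -0.17 with the longest transcript, an alternative chosen after seeing the data.

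Replicate numbers shared by the groups are not said to mark a common culture or day. Over 12661 genes the deviations of same-numbered libraries correlated at 0.303, and at 0.211 with the trend removed. The replicate block called 3 genes over all tested, and the replicate block with the length and GC trend removed called 24, against 0 without either; none was a Notch member. The 3 were Oas2, Ifi27l2a and C4b, named after their values were seen. Hes1 had an unadjusted p of 0.032 in limma with the replicate block (adjusted p = 0.8055), where 1204 of 19547 genes were under 0.05. It was 0.031 with the trend also removed (adjusted p = 0.6485), where 1433 genes were. Jag1 had an unadjusted p of 0.010 in limma without the filter (adjusted p = 0.5298), where 1441 of 22369 genes were. With 2 libraries a group and unknown depth, the widest 95% interval among members was that of Notch1, from -1.96 to 1.06.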
